A study of Homo sapiens with 9 samples.

Results

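Heme synthesis was followed here through 9 genes: the enzymes ALAS1, ALAS2, ALAD, UROS, UROD, CPOX, PPOX and FECH, and the iron carrier mitoferrin, SLC25A37. They were taken from a list by their known roles, with earlier results of these data known, and are 9 of 30424 genes that had any count in these libraries. All 9 passed the filter on low counts in each comparison, and 102 transcripts were listed for them. The list does not cover each step of the pathway.

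The cells were K562, whose polyadenylated RNA was sequenced. K562 is a human myelogenous leukemia cell line that carries part of the red cell programme. The control group, SCR, received a pool of non-targeting siRNAs (its treatment label reads WT). Another group received a pool of siRNAs against DHX34, and the last received siRNAs against UPF1. The paper describes a repeat transfection on day 3. All 3 groups were the same line, which the labels spell K652 beside titles that read K562, harvested on day 4 with 3 libraries each. DHX34 is an RNA helicase and UPF1 the central helicase of nonsense-mediated decay (NMD), the route that removes transcripts whose reading frame stops too early. The study calls its replicates biological, and no label says which step was repeated, so the p-values measure the spread between these libraries. Each knockdown lowered its target and did not remove it.

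Heme is made partly in the mitochondrion and partly in the cytosol. ALAS joins glycine and succinyl-CoA in the mitochondrial matrix, the next enzymes build and trim the porphyrin ring in the cytosol, and the last steps return to the mitochondrion, where FECH inserts the iron that mitoferrin brings in. Maturing red cells make heme in bulk for hemoglobin and use their own first enzyme, ALAS2, whereas ALAS1 serves most other cells.

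Library totals ran from 73478797 to 103625443 expected counts, the reads salmon assigned to transcripts. DHX34 RNA fell from 71.9 to 74 CPM (gene counts relative to the scaled library size) in SCR to 29.7 to 33.8 CPM in the libraries of its knockdown. UPF1 RNA fell from 250 to 264 CPM in SCR to 104 to 106 CPM in the UPF1 knockdown. The erythroid markers were present, with 9 of 9 at a mean of 1 TPM or more (TPM is abundance corrected for transcript length). Replicate 3 of the DHX34 knockdown stood apart from the other two: the chi-square of the counts per gene was 22.7 and 20.4 against them, 6.01 between those, and 5.63 to 9.54 within SCR and UPF1 knockdown. Calls that change without it are given beside the results.

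FECH and UROS isoforms on which the results turn are shown at the splice junction where each parts from a coding form of its gene, as 30 bases of spliced RNA read 5′ to 3′ from the GENCODE 44 transcripts on GRCh38. Lower case is the end of the shared upstream exon, and capitals are the start of the exon joined to it. FECH lies on chromosome 18, minus strand. In FECH-201 the capitals are chr18:57571529-57571540, and in FECH-203 they are chr18:57571592-57571603.
FECH-201: gacacttcctattcagaaTAAGCTGGCACC
FECH-203: gacacttcctattcagaaAAAACATTTCTC
UROS lies on chromosome 10, minus strand, with the capitals at chr10:125788991-125789005 in UROS-204 and at chr10:125789514-125789528 in UROS-210.
UROS-204: atcgatcaaattaagTTTGCAGCCATCGGC
UROS-210: atcgatcaaattaagATGAGGAGATGGAGG

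FECH-203 (ENST00000585494, annotated as a target of NMD) opens exon 4 at an acceptor 63 bases upstream of the usual one. Its stop codon, chr18:57571582-57571584, starts at base 20 of that extension, 190 bases before the next junction and with 7 junctions after it. UROD-204 (ENST00000460334, also annotated as NMD) opens exon 5 at an acceptor 19 bases upstream, and its stop codon has 1 junction after it, 85 bases on. UROS-210 (ENST00000484541, no coding sequence annotated) holds an extra exon of 246 bases, chr10:125789283-125789528, that overlaps no exon of UROS-204. ALAD-208 (ENST00000482847, a retained-intron form) opens exon 3 at a site 166 bases upstream of the one in ALAD-201. These 4 alternative isoforms had equal lengths in the deposited files and in GENCODE 44. The coding forms they are compared with did not. FECH-201 had 3853 bases in the deposited files and 7689 in GENCODE 44, and UROD-201 had 1300 and 1193. For UROS-204 the lengths were 1313 and 1336, and for ALAD-201 3173 and 3129. Junctions and shared bases given here are those of GENCODE 44.

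Levels are compared between genes on the TPM scale, which divides by length. In SCR, UROD, which removes carboxyl groups from the porphyrin ring, had the highest level of the 9, at 702 ± 29.5 TPM (SD, n = 3). FECH followed with 92.9 ± 4.52 TPM and SLC25A37 with 64.8 ± 4.17 TPM, and the libraries of these 3 genes did not overlap. UROS at 38.3 ± 0.625 TPM and ALAS2 at 36.2 ± 2.92 TPM overlapped each other, as did PPOX at 28.5 ± 1.74 TPM and CPOX at 26.3 ± 0.934 TPM. ALAS1 at 19.1 ± 0.757 TPM and ALAD at 6.77 ± 0.15 TPM stood lowest, each apart from its neighbours in the order. The order of the first 4 genes was the same in the 3 groups, while ALAS2 moved from rank 5 in SCR and in the DHX34 knockdown to rank 7 in the UPF1 knockdown, where it was at 24.7 ± 1.22 TPM.

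**Figure D1:**
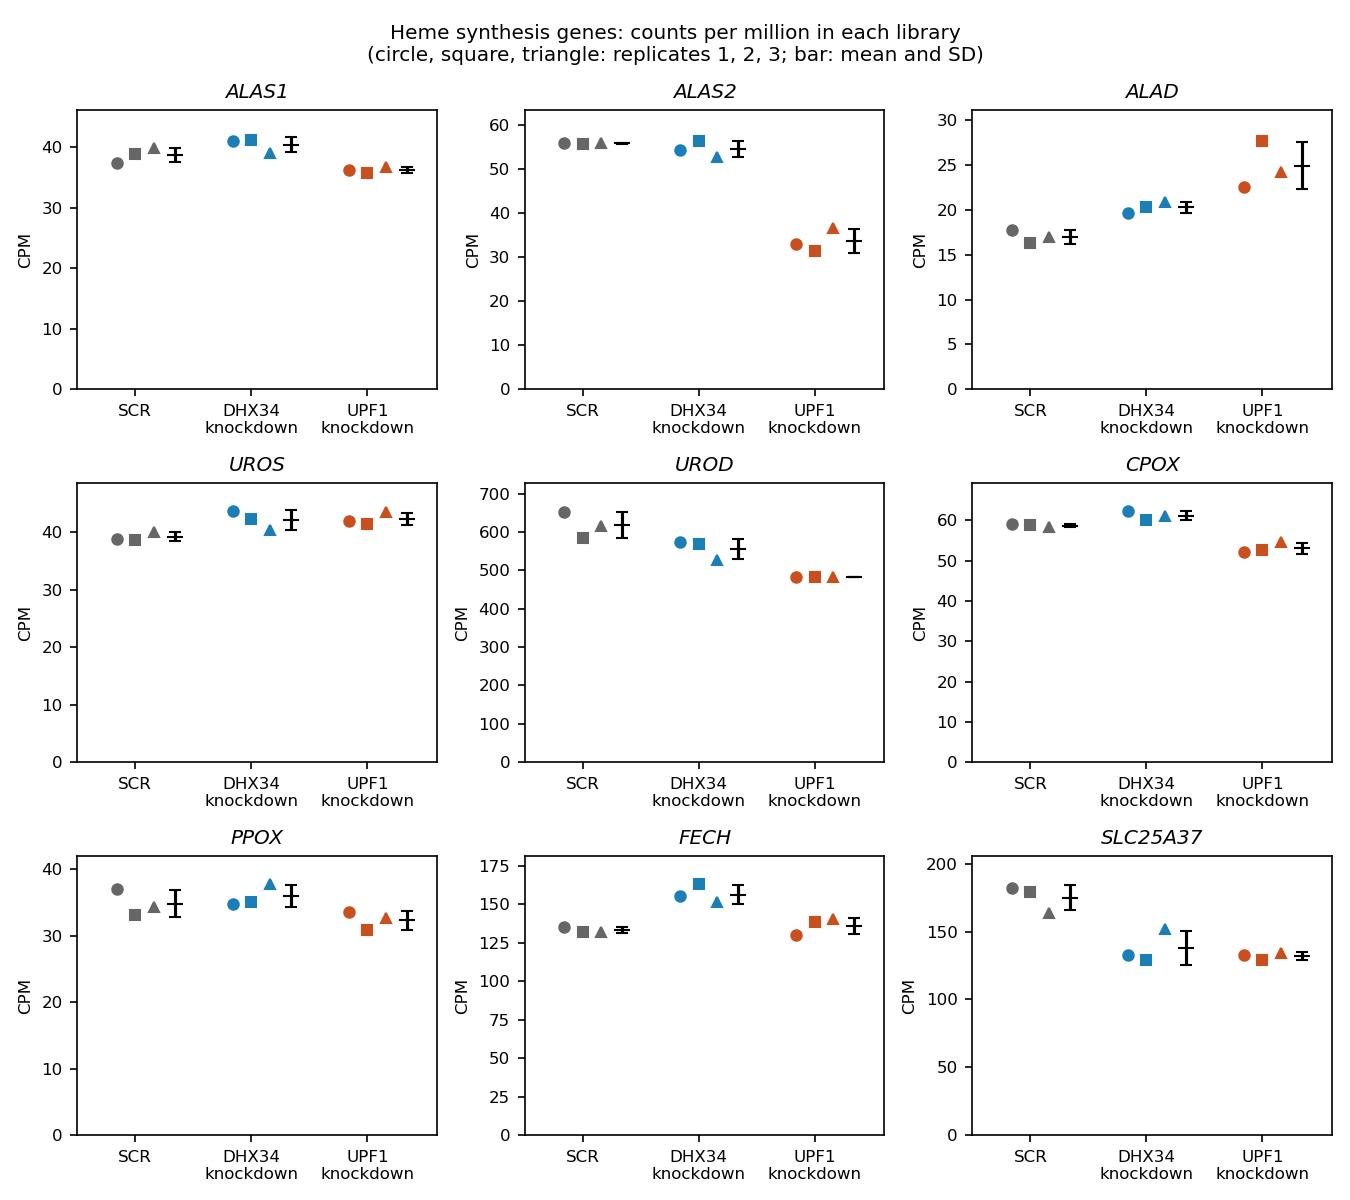
CPM (vertical axis from 0) of the 9 genes in each library of SCR, the DHX34 knockdown and the UPF1 knockdown. Circles, squares and triangles are replicates 1, 2 and 3, and the bar beside them is the mean with its SD. The UPF1 knockdown libraries of ALAS2 sit at 31.3 to 36.7 CPM against 55.7 to 55.9 CPM in SCR, and those of ALAD at 22.6 to 27.7 CPM against 16.3 to 17.8 CPM.

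The first comparison asked how heme synthesis genes responded when UPF1 was lowered. ALAS2, UROD, SLC25A37 and CPOX fell and ALAD rose, while ALAS1, UROS, PPOX and FECH did not pass the threshold, an adjusted p of at most 0.005 in edgeR's quasi-likelihood test over all genes. Thus 5 of the 9 genes were called, 4 of them lower, where 25.8% of the 17191 genes tested were called, 12.7% raised and 13.1% lowered. The median log2 fold change was -0.12 over the 9 genes and 0.02 over all genes tested.

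ALAS2 encodes the erythroid first enzyme and is on chromosome X (55009055 to 55030977, minus strand). Its level was 55.9, 55.7 and 55.9 CPM in the SCR libraries and 32.9, 31.3 and 36.7 CPM in the UPF1 knockdown libraries. Each knockdown library was below each control library. The log2 change was -0.74 (SE 0.053, edgeR adjusted p = 6.95e-07), that is 0.601 of the control level, and it stayed called in 6 of 6 fits that left out 1 library. The summed level of the 9 erythroid markers also fell, from 25539 to 27134 TPM in SCR to 15495 to 16700 TPM in the UPF1 knockdown, and its part in the result was not tested. Such a sum follows its most abundant members. Among these markers TFRC went the other way (log2 0.40, edgeR adjusted p = 9.61e-07), while GATA1 and KLF1 fell (-0.29 and -0.40). In a bulk sample, fewer cells of a kind and less RNA per cell cannot be told apart.

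ALAS1, the first enzyme of other tissues, stayed between 35.7 and 36.8 CPM in the UPF1 knockdown against 37.4, 38.9 and 39.9 CPM in SCR. The groups did not overlap, but the log2 fold change of -0.10 (SE 0.0397) had an edgeR adjusted p of 0.0593, and on log2(TPM + 0.5) the difference was 0.15 (limma adjusted p = 0.0327). On that scale the median over all genes shifted by 0.17 in the UPF1 and 0.13 in the DHX34 knockdown, and values on it are to be read against that shift. On the TPM scale ALAS2 was 1.95, 2 and 1.74 times as abundant as ALAS1 in the SCR libraries and 1.19, 1.08 and 1.22 times in the UPF1 knockdown libraries. This ratio between both first enzymes does not depend on library scaling, and the groups did not overlap (exact permutation tests of 3 libraries against 3 cannot give a p below 0.10).

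ALAD (chromosome 9, 113386312 to 113401290, minus strand), which joins a pair of molecules of aminolevulinic acid into the first pyrrole, was the only one of the 9 genes called higher. Its level was 17.8, 16.3 and 17 CPM in SCR and 22.6, 27.7 and 24.2 CPM in the UPF1 knockdown. The groups were apart, with the widest spread in the knockdown. The log2 change was 0.54 (SE 0.0709, edgeR adjusted p = 6.68e-05) and stayed called in 6 of 6 fits that left out 1 library.

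UROS, which closes the porphyrin ring, was at 38.8, 38.7 and 40 CPM in SCR and at 41.9, 41.4 and 43.5 CPM in the UPF1 knockdown, a log2 difference of 0.11 that was not called (edgeR adjusted p = 0.0445), though on log2(TPM + 0.5) it was, at 0.26 (limma adjusted p = 0.00084). UROD was at 653, 586 and 617 CPM in SCR and at 484, 482 and 482 CPM in the UPF1 knockdown. The knockdown libraries had an SD of 1.1 CPM and each lay under each control. UROD fell by 0.36 on the log2 scale (SE 0.0345, edgeR adjusted p = 5.64e-06) and stayed called in 6 of 6 fits that left out 1 library, but not on log2 TPM, where the difference was -0.08.

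CPOX, which oxidises coproporphyrinogen in the space between the mitochondrial membranes, was at 59.2, 58.8 and 58.3 CPM in SCR and at 52.1, 52.7 and 54.6 CPM in the UPF1 knockdown. The difference was small, with a log2 value of -0.15 (SE 0.0355, edgeR adjusted p = 0.00482), just inside the threshold. The call was lost in each of the 6 fits that left out 1 library (adjusted p from 0.00594 to 0.0274), and the sign turned on log2(TPM + 0.5), at 0.06. PPOX, which makes the aromatic porphyrin, overlapped between groups at 37, 33.1 and 34.3 against 33.5, 30.8 and 32.6 CPM (log2 -0.12, edgeR adjusted p = 0.0953).

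At the final step, FECH (chromosome 18, 57544377 to 57586732, minus strand) was at 135, 132 and 132 CPM in SCR and at 130, 138 and 140 CPM in the UPF1 knockdown. The groups overlapped, and the log2 difference was 0.02 (SE 0.0341, edgeR adjusted p = 0.681). On log2(TPM + 0.5) FECH was called higher, at 0.26 (limma adjusted p = 0.00243). SLC25A37, the mitoferrin that carries iron into the mitochondrion of red cell precursors, lies on chromosome 8 (23528956 to 23575463, plus strand). It went from 182, 179 and 164 CPM in SCR to 133, 129 and 134 CPM in the UPF1 knockdown, with no overlap. It fell by 0.41 on the log2 scale (SE 0.0406, edgeR adjusted p = 7.54e-06) and was called in 6 of 6 fits without 1 library, but with a log2 TPM difference of -0.18 it was not called on that scale. In all, the CPM values of 7 of the 9 genes did not overlap between SCR and the UPF1 knockdown, where 50.8% of all genes did not.

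**Figure D2:**
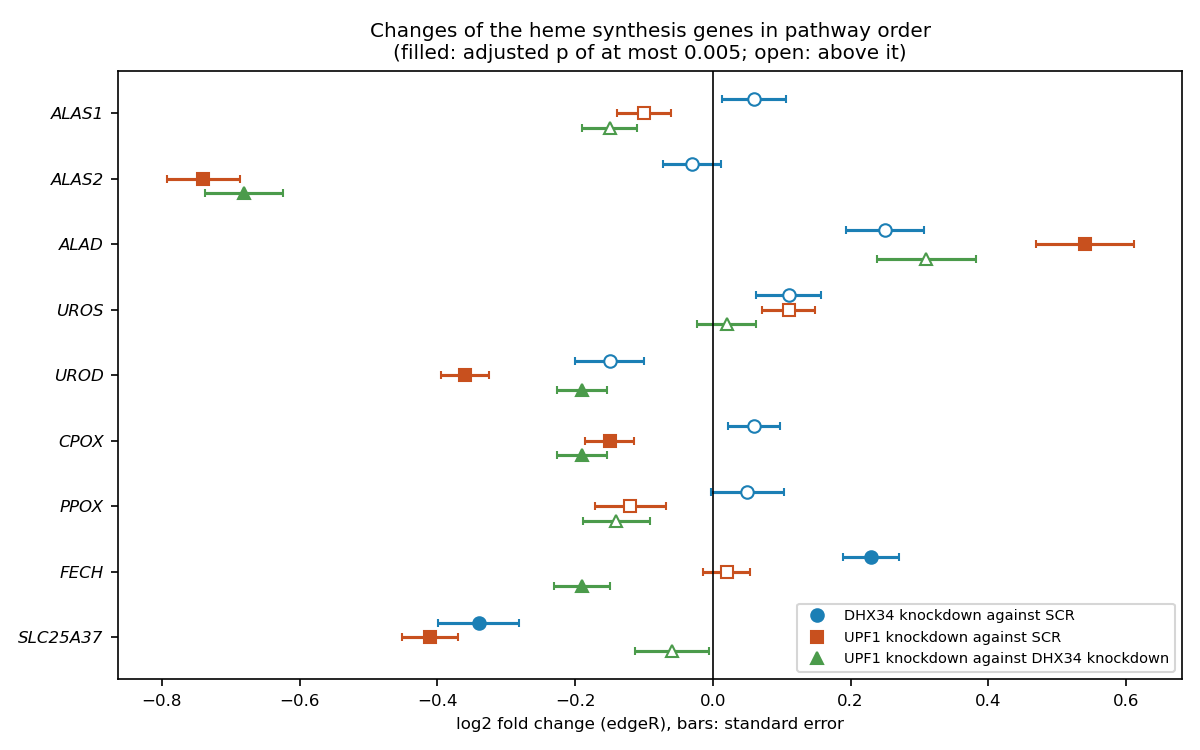
Log2 fold changes (horizontal axis) of the 9 genes, top to bottom in pathway order, with standard errors as bars. Circles compare the DHX34 knockdown with SCR, squares the UPF1 knockdown with SCR, and triangles both knockdowns with each other, and filled symbols passed an adjusted p of 0.005. ALAS2 has filled symbols at -0.74 and -0.68, and FECH and SLC25A37 are the 2 genes with a filled circle.

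The second comparison asked the same of DHX34. FECH rose and SLC25A37 fell, and the other 7 genes did not pass the threshold. This is 2 of 9 genes, where 10.8% of the 17010 genes tested were called, 5.81% raised and 5.01% lowered. The median log2 fold change was 0.06 over the 9 genes and 0.02 over all genes tested. By CPM, 6 of the 9 genes did not overlap between the groups, where 41.6% of all genes did not.

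FECH was at 155, 163 and 151 CPM in the DHX34 knockdown, above the 3 SCR libraries at 132 to 135 CPM. The log2 change was 0.23 (SE 0.0409, edgeR adjusted p = 0.00209). Without replicate 3 of the knockdown it was 0.26 (adjusted p = 0.000331), and without any one of the other 5 libraries the call was lost, with an adjusted p of up to 0.0104 and a log2 value of at least 0.19. SLC25A37 was at 133, 129 and 152 CPM, below SCR in each library, with replicate 3 nearest to the controls. On the log2 scale it changed by -0.34 (SE 0.0588, edgeR adjusted p = 0.00188), and -0.40 without that replicate (adjusted p = 0.000115). The SLC25A37 call was lost without SCR replicate 1 or 2 and without knockdown replicate 1 or 2 (adjusted p up to 0.0166), and kept without SCR replicate 3.

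ALAD at 19.7, 20.3 and 20.9 CPM was above the SCR libraries but just missed the threshold (log2 0.25, SE 0.0565, edgeR adjusted p = 0.00738). UROD at 573, 568 and 527 CPM was below SCR with a log2 difference of -0.15 (edgeR adjusted p = 0.0452). ALAS2 at 54.4, 56.3 and 52.8 CPM overlapped SCR with a log2 difference of -0.03 (SE 0.0418, edgeR adjusted p = 0.616). ALAS1, UROS, CPOX and PPOX had log2 differences of 0.06, 0.11, 0.06 and 0.05, none called by edgeR, where 5 of the 9 genes had an unadjusted p under 0.05. On log2(TPM + 0.5) CPOX and UROS were called higher, at 0.30 (limma adjusted p = 0.00455) and 0.23 (0.00492), and the SLC25A37 call was lost (-0.21, adjusted p = 0.112). The ratio of ALAS2 to ALAS1 by TPM was 1.56, 1.53 and 1.52 in the DHX34 knockdown libraries, below the 3 SCR libraries. The ALAS2 TPM includes ALAS2-208, a form of 582 bases, at 3.8, 3.96 and 0 TPM in SCR. That form was at 0 in each DHX34 knockdown library, and its part in the ratio was not tested.

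Sums over marker genes of other blood cells also moved in this knockdown, with only 1 marker of each list at a mean of 1 TPM or more. The 8 megakaryocytic markers summed to 5.65 to 6.94 TPM in the DHX34 knockdown, against 1.35 to 2.42 TPM in SCR and 1.89 to 2.43 TPM with UPF1 lowered, with 7 of 8 under 1 TPM. The 6 granulocytic and monocytic markers summed to 14.1 to 14.7, 29.8 to 32.9 and 12 to 12.9 TPM in SCR, the DHX34 and the UPF1 knockdown, with MPO, ELANE, CD14, CSF1R and ITGAM under 1 TPM. The 4 lymphoid markers summed to 1.89 to 2.55, 3.66 to 4.19 and 1.63 to 2 TPM, with CD3E, CD79A and MS4A1 under 1 TPM. The erythroid markers summed to 23513 to 25617 TPM in the DHX34 knockdown. Their part in the FECH and SLC25A37 results was not tested.

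A direct fit of the UPF1 against the DHX34 knockdown tested where both differed. ALAS2, UROD, CPOX and FECH were lower in the UPF1 knockdown, and none of the 9 was called higher by edgeR (7 had an unadjusted p under 0.05, and DESeq2 called 1 higher), where 17.6% of 17441 genes tested were called, 10% raised and 7.59% lowered. ALAS2 had a log2 difference of -0.68 (SE 0.0566, edgeR adjusted p = 5.89e-06), called in 6 of 6 fits without 1 library. UROD (adjusted p = 0.00208), CPOX (0.00185) and FECH (0.00364) each had a log2 difference of -0.19 in the edgeR fit. These 3 calls were less stable: UROD and FECH were kept without DHX34 knockdown replicate 3 and lost without each other library, and CPOX was kept without DHX34 knockdown replicate 3 or UPF1 knockdown replicate 3 and lost without the other 4. Without DHX34 knockdown replicate 3, ALAS1 was also called lower (-0.18, edgeR adjusted p = 0.0024, against -0.15 and 0.016 with it). For ALAD the log2 difference of 0.31 missed the threshold (SE 0.0714, edgeR adjusted p = 0.00717), and for SLC25A37 it was -0.06 (SE 0.0537, adjusted p = 0.479), with overlapping libraries. The CPM of 7 of the 9 genes did not overlap between the knockdowns, where 46.2% of all genes did not.

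Isoforms were described next, since a gene's total can hide a change within it. Single transcripts were tested on counts with edgeR at the same threshold, and the use of a transcript within its gene was tested with limma on the log2 ratio of its TPM to that of the gene's other transcripts, at an adjusted p of at most 0.05. In the UPF1 knockdown 4 of 75 transcripts tested were called (2.65% of all transcripts tested were, 0.998% higher and 1.65% lower), FECH-203 higher and UROD-201, SLC25A37-206 and the ALAS2 form ENST00000330807 lower. In use within the gene, 2 of 70 were called, FECH-203 and UROS-210, both higher (2.55% of all tested, 1.51% higher and 1.04% lower). In the DHX34 knockdown none of 72 transcripts was called by edgeR (0.0463% of all tested, 0.0347% higher and 0.0116% lower), with 13 at an unadjusted p under 0.05, and DESeq2 called 3. None of 68 was called in use by limma there (0.431% of all tested, 0.248% higher and 0.183% lower), with 3 at an unadjusted p under 0.05, and diffSpliceDGE called 0. Between the knockdowns 1 of 74 transcripts was called, the ALAS2 form ENST00000330807, lower with UPF1 lowered (1.09% of all tested, 0.756% higher and 0.332% lower), and 1 of 69 in use, FECH-203, higher (1.24% of all tested, 0.807% higher and 0.432% lower). That ALAS2 call was kept in 1 of 6 fits without 1 library (edgeR adjusted p from 0.00371 to 0.012), and without DHX34 knockdown replicate 3 UROD-201 was called lower too (-0.37, adjusted p = 0.00168, against -0.29 and 0.0325 with it).

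FECH-203, the NMD form printed above, rose in the UPF1 knockdown, where the FECH count total was not called. Its level was 2.07, 2.01 and 2.14 TPM in SCR, 3.55, 5.19 and 3.83 TPM in the DHX34 knockdown, and 9.29, 9.5 and 8.37 TPM in the UPF1 knockdown. The 3 groups did not overlap, with DHX34 knockdown between the others. By counts, the log2 change in the UPF1 knockdown was 1.88 (SE 0.0981, edgeR adjusted p = 0.000572), and in the DHX34 knockdown 0.86 (SE 0.187, adjusted p = 0.0765), which edgeR did not call and DESeq2 did (adjusted p = 0.00372). Each fit without 1 library gave a log2 value of 1.82 to 1.93 for UPF1, though the call at 0.005 held in 1 of 6 (adjusted p from 0.00321 to 0.00848).

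As a share of the FECH TPM, FECH-203 made up 2.15, 2.11 and 2.44% in SCR, 2.83, 3.69 and 2.97% in the DHX34 knockdown, and 8.64, 8.35 and 7.47% in the UPF1 knockdown. The log2 change in use was 1.91 for the UPF1 knockdown (SE 0.177, limma adjusted p = 0.0113) and 0.48 for the DHX34 knockdown (SE 0.222, adjusted p = 0.47). The direct difference between knockdowns was 1.43 (SE 0.193, limma adjusted p = 0.0395). The UPF1 call held in 3 of 6 fits without 1 library, being lost without any one UPF1 knockdown library (adjusted p up to 0.0692), and the direct call was lost in 6 of 6 (adjusted p from 0.0698 to 0.16).

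**Figure D3:**
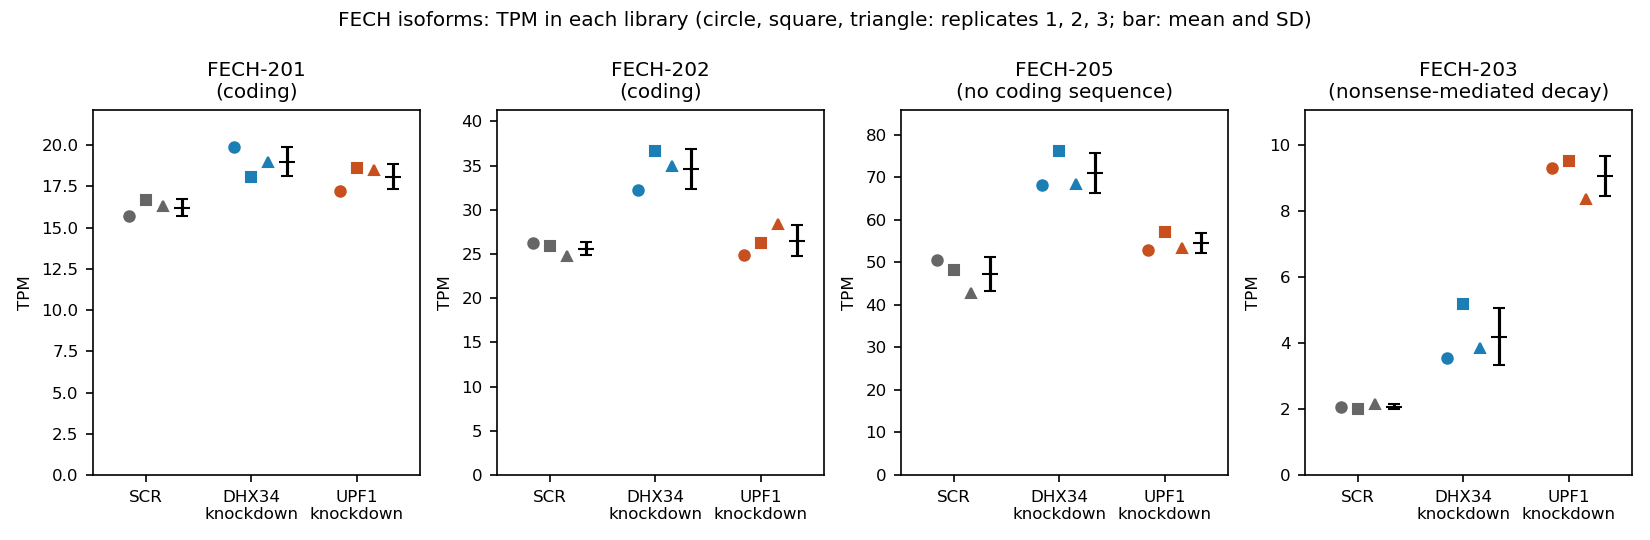
TPM (vertical axis from 0) of the 4 FECH isoforms that carry most of the gene's abundance or were called, in each library of the 3 groups. Symbols mark replicates 1 to 3 and bars the mean with SD. FECH-203 goes from about 2.07 TPM in SCR to 4.19 TPM in the DHX34 knockdown and 9.05 TPM in the UPF1 knockdown, while FECH-205 is higher in the DHX34 knockdown at 71 TPM than in SCR at 47.3 TPM.

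The rest of FECH was carried by 2 coding forms and a short one. FECH-205 (ENST00000585747, 564 bases, no coding sequence annotated) shares 532 of its bases with FECH-201 and ends in an exon of 32 bases, chr18:57567845-57567876, which overlaps no exon of FECH-201. It was listed at 50.6, 48.3 and 42.9 TPM in SCR and 68.3, 76.3 and 68.4 TPM in the DHX34 knockdown, which is 52.6, 50.8 and 48.9% of the gene's TPM in SCR and 54.3, 54.3 and 53.1% with DHX34 lowered, without overlap but not called in use (limma adjusted p = 0.54). Only 32 of its bases are outside FECH-201, so most of its reads had to be divided between isoforms by salmon. The same holds for FECH-203, with 63 of 1874 bases outside FECH-201. By counts the log2 change of FECH-205 in the DHX34 knockdown was 0.42 (edgeR adjusted p = 0.0796). That of the coding form FECH-202 was 0.27 (adjusted p = 0.0765) and that of FECH-201 0.06 (adjusted p = 0.72). In the UPF1 knockdown the same 3 forms had log2 changes of -0.04, -0.20 and -0.10, none called.

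UROD-201 was at 467, 436 and 435 TPM in SCR and 376, 379 and 377 TPM in the UPF1 knockdown, and by counts it fell by 0.50 on the log2 scale (SE 0.0397, edgeR adjusted p = 0.00158), a call kept in 1 of 6 fits without 1 library (adjusted p from 0.0023 to 0.0147). The NMD form UROD-204, of whose 663 bases 19 lie outside UROD-201, was at 91.7, 92.2 and 86.6 TPM in SCR and 110, 104 and 103 TPM in the UPF1 knockdown. By counts UROD-204 had a log2 change of -0.03 (SE 0.0423, edgeR adjusted p = 0.727). Its share of the UROD TPM was 12.5, 13.3 and 12.7% in SCR and 16.5, 15.7 and 15.6% in the UPF1 knockdown, apart in each library, but the change in use of 0.36 was not called (limma adjusted p = 0.167). In the DHX34 knockdown the share was 13.3, 11.7 and 13.2% and overlapped SCR.

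UROS-210 made up 0.906, 1.41 and 1.61% of the UROS TPM in SCR, 3.13, 2.12 and 1.58% in the DHX34 knockdown and 4.54, 3.74 and 4.43% in the UPF1 knockdown. The change in use was 1.57 in the UPF1 knockdown (SE 0.259, limma adjusted p = 0.0454), just inside the threshold, and was lost in 6 of 6 fits without 1 library (adjusted p from 0.0792 to 0.16). UROS-206, a form with an alternative last exon (chr10:125791520-125794388) whose stop begins at base 10 of that exon, went from 4.93, 5.57 and 5.08% to 7.27, 7.51 and 7.4% of the UROS TPM, which was not called (limma adjusted p = 0.141). The coding form UROS-204 went from 37.3, 35.4 and 33.5% to 27.5, 26.2 and 26.5% (limma adjusted p = 0.0567).

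**Figure D4:**
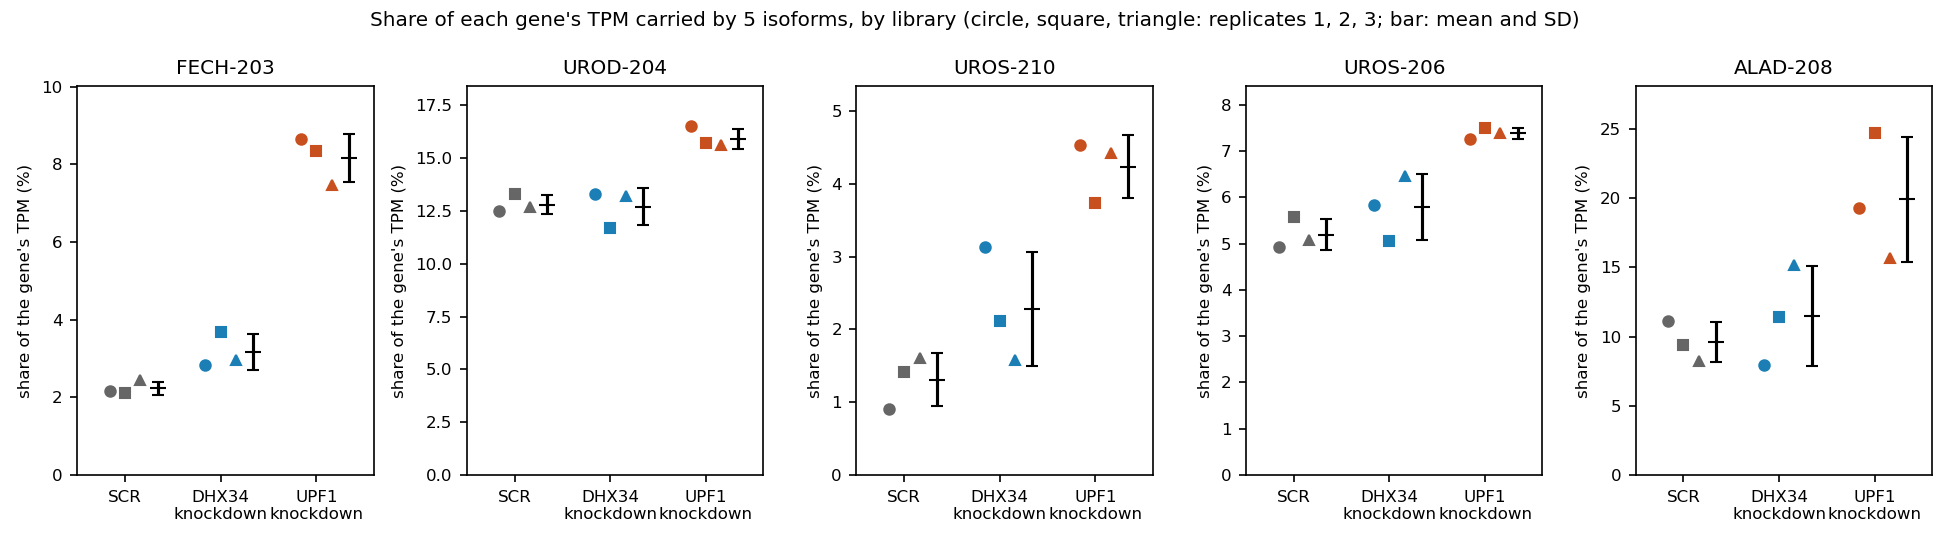
Percentage of each gene's TPM (vertical axis from 0) carried by FECH-203, UROD-204, UROS-210, UROS-206 and ALAD-208 in each library. Symbols mark replicates 1 to 3 and bars the mean with SD. In each panel the 3 UPF1 knockdown libraries lie above the 3 SCR libraries, and the DHX34 knockdown libraries overlap SCR except for FECH-203.

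ALAD-208 was at 0.754, 0.623 and 0.571 TPM in SCR, 0.691, 1.08 and 1.35 TPM in the DHX34 knockdown and 2.14, 3.05 and 1.64 TPM in the UPF1 knockdown. Its log2 change by counts in the UPF1 knockdown was 1.56 (SE 0.263, edgeR adjusted p = 0.0156), not called, while the coding form ALAD-201 had 0.26 (adjusted p = 0.153). ALAD-208 was 9.59 ± 1.44% of the ALAD TPM in the controls and 19.9 ± 4.51% with UPF1 lowered (SD, n = 3), and its use was not called (limma adjusted p = 0.0812). Neither form was called on its own, although the ALAD total was.

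ALAS2 was made up of 2 forms of near equal abundance, ALAS2-201 and the transcript ENST00000330807, whose identifier GENCODE 44 no longer holds. That transcript was at 15.4, 14.1 and 14.4 TPM in SCR, 15.6, 16.7 and 16.4 TPM in the DHX34 knockdown and 9.65, 9.79 and 9.84 TPM in the UPF1 knockdown, and by counts it fell by 0.84 on the log2 scale in the UPF1 knockdown (SE 0.0604, edgeR adjusted p = 0.0013), a call kept in 1 of 6 fits without 1 library (adjusted p from 0.00321 to 0.0126). ALAS2-201 was not called (log2 -0.68, SE 0.11, adjusted p = 0.0134), and no ALAS2 transcript was called in use. Without the retired identifier ALAS2 was still lower in the UPF1 knockdown than in the DHX34 knockdown (log2 -0.60, edgeR adjusted p = 0.00047). In SCR and the UPF1 knockdown, ALAS2-202 and ALAS2-208 were at 0 in some libraries and at up to 3.96 TPM in others. In the DHX34 knockdown ALAS2-202 was at 2.69, 2.55 and 2.27 TPM and ALAS2-208 at 0 in each library.

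Of the remaining genes, SLC25A37 was mostly non-coding by annotation. Its transcripts without an intact coding sequence made up 78.9 ± 1.03% of its TPM in the controls, 78.5 ± 0.437% with DHX34 lowered and 78.5 ± 0.577% with UPF1 lowered (SD, n = 3). The retained-intron form SLC25A37-204, at 21.4 TPM, the NMD form SLC25A37-201, at 17.3 TPM, and the coding form SLC25A37-206, at 13.7 TPM, were the main ones in SCR. In the UPF1 knockdown SLC25A37-206 fell by 0.41 by counts (log2, SE 0.04, edgeR adjusted p = 0.00258), a call lost in 6 of 6 fits without 1 library (adjusted p from 0.00631 to 0.019), and SLC25A37-204 and SLC25A37-201 had log2 changes of -0.56 and -0.39 that were not called (adjusted p = 0.0129 and 0.0257). No SLC25A37 transcript was called in use.

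For CPOX, the long transcript ENST00000264193, another retired identifier, made up 90.7, 86.3 and 88.2% of the TPM in SCR. Without it the CPOX change was 0.98 in the DHX34 knockdown (edgeR adjusted p = 0.0104) and 0.04 in the UPF1 knockdown, so the CPOX values rest on that transcript. The retained-intron form CPOX-203 was at 2.25, 3.51 and 2.56 TPM in SCR and at 4.84, 8.11 and 4.92 TPM in the DHX34 knockdown, which was apart from SCR in each library but not called (log2 0.98, SE 0.294, edgeR adjusted p = 0.173). For PPOX, the NMD-annotated transcripts made up 8.55, 7.81 and 8.22% of the TPM in SCR and 14.2, 11.4 and 12.1% in the UPF1 knockdown, a difference of 4.39 percentage points (exact permutation test, two-sided, p = 0.1, the smallest 3 against 3 can give). The coding form PPOX-201 ranged from 3.19 to 8.88 TPM within SCR. The coding forms of ALAS1 were not called in any test.

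Over all transcripts without an annotated intact coding sequence, the share of the gene's TPM was higher in each UPF1 knockdown library than in each SCR library for 4 of the 8 genes that have such transcripts, UROD, UROS, FECH and ALAD, where 19.3% of 11157 genes did so. The differences were 6.28 points for UROD, 3.03 for UROS, 5.13 for FECH and 11.2 for ALAD, each with an exact two-sided p of 0.1, which is the smallest possible. For ALAD the retained-intron forms alone gave 10.3 points, and there the libraries overlapped (exact permutation p = 0.2). For PPOX, ALAS2, SLC25A37 and CPOX the differences over all such transcripts were -0.478, -0.437, -0.404 and 0.985 points, with overlapping libraries. In the DHX34 knockdown the same held for 2 of the 8, FECH (4.22 points) and CPOX (8.35 points), also at an exact permutation p of 0.1, where 8.44% of 11119 genes did so. For UROD, UROS and ALAD the difference there was 1.34, 0.0105 and -0.696 points, with overlapping libraries.

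Genes around the pathway were read from lists of known roles. Their counts and medians stand against those of all genes: 12.7% raised, 13.1% lowered and a median log2 of 0.02 in the UPF1 knockdown, and 5.81%, 5.01% and 0.02 with DHX34 lowered. Of 13 tested genes listed under heme, porphyrin and substrate transport, 2 were raised and 3 lowered in the UPF1 knockdown (median log2 -0.11). In the DHX34 knockdown 2 were raised (median 0.08). SLC25A38, which brings glycine into the mitochondrion, rose in the UPF1 knockdown (log2 0.31, edgeR adjusted p = 7.55e-06), and so did the heme exporter FLVCR1 (0.25, 0.000708). SLC25A39, TMEM14C and FAM210B, mitochondrial membrane proteins that erythroid heme synthesis uses, fell there with log2 values of -0.27, -0.18 and -0.37. The genes raised in the DHX34 knockdown were the porphyrin transporter ABCB6 (0.21, edgeR adjusted p = 0.00441) and the lysosomal heme carrier SLC48A1 (0.36, adjusted p = 0.000246), and both were lower in the UPF1 than in the DHX34 knockdown, by -0.35 and -0.41 in the direct fit.

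For heme breakdown and sensing, of 8 tested genes of 10 listed, 3 were lowered in the UPF1 knockdown (13.1% of all genes were), the others having an adjusted p of 0.0115 or more (median log2 -0.19): the heme oxygenase HMOX2 (-0.33, edgeR adjusted p = 1.72e-05) and the biliverdin reductases BLVRA (-0.31, adjusted p = 7.11e-05) and BLVRB (-0.44, adjusted p = 4.11e-07). In the DHX34 knockdown the lowest edgeR adjusted p of the 8 was 0.0323, and the median was -0.08. HMOX1 and PPARGC1A did not pass the filter on low counts.

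Among 14 genes of iron supply and iron-sulphur cluster assembly, 2 rose and 5 fell in the UPF1 knockdown (median log2 -0.10, with 25.8% of all genes were called), and 1 rose and 3 fell in the DHX34 knockdown (median -0.07, 10.8% called). TFRC, the transferrin receptor, rose in the UPF1 knockdown (log2 0.40, edgeR adjusted p = 9.61e-07), where SLC25A37 fell. FDXR, a mitochondrial reductase, was raised in both knockdowns, by 0.70 with DHX34 lowered and 0.28 with UPF1 lowered. The assembly factor ISCU was lower in both, with log2 values of -0.23 when DHX34 was lowered and -0.19 when UPF1 was lowered. LYRM4, which partners the cysteine desulfurase, was lowered in the DHX34 knockdown (-0.39, edgeR adjusted p = 0.000692), and the direct fit gave a difference of 0.35 (adjusted p = 0.000258).

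Of the 3 genes that build heme into the respiratory chain, COX15 rose (log2 0.16) and HCCS fell (-0.15) in the UPF1 knockdown, and in the DHX34 knockdown the lowest edgeR adjusted p of the 3 was 0.312. Among 12 tested erythroid transcription factors, 7 fell and 2 rose in the UPF1 knockdown (median log2 -0.29, with 13.1% of all genes lowered and 12.7% raised), and 2 fell and 2 rose in the DHX34 knockdown (median -0.02). GATA1, the master regulator of red cell genes, had a log2 value of -0.29 in the UPF1 knockdown (edgeR adjusted p = 1.67e-05) and of 0.02 in the DHX34 knockdown (adjusted p = 0.734). KLF1 fell by 0.40, NFE2 by 0.48 and LMO2 by 0.66 on the log2 scale in the UPF1 knockdown, while MYB and RUNX1 rose by 0.27 and 0.49. In the DHX34 knockdown LMO2 and GATA2 fell (-0.27 and -0.31) and ZFPM1 and RUNX1 rose (0.33 and 0.21). TFRC, KLF1 and GATA1 are also among the 9 erythroid markers.

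As a description over the 9 libraries, the genes whose log2 CPM followed ALAS2 most closely among 10073 genes were HEMGN (Pearson r = 0.987), KDM1A (0.987) and RCSD1 (0.986). For ALAS1 they were STK17B (0.975), SMARCD2 (0.973) and BLOC1S3 (0.968). The 9 points share library scaling and fall into 3 groups.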

How the data were processed

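The deposited files held, for each of the 9 libraries, transcript estimates that the authors made with salmon, with its GC bias correction, on Ensembl release 93. They gave expected counts, and the authors' TPM beside them. Deposited tables of the authors' own comparisons, from sleuth and SUPPA, hold fold changes, p-values and splicing differences, which were not used. Only their pairing of transcript and gene identifiers was read.

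Transcripts were joined to genes through GENCODE 44, and 123 retired transcripts were added from that pairing, so that 98.9 to 99% of counts had a gene. The pairing covers only genes in the authors' tables. Expected counts were summed per gene, rounded and tested with edgeR 4.0.16 (quasi-likelihood, TMM, filterByExpr with a minimum count of 10), separately for each pair of groups, with Benjamini-Hochberg adjustment and a threshold of 0.005. CPM are those counts relative to the TMM-scaled library size. Transcripts were tested likewise. Use within a gene was tested with limma 3.58.1 on TPM with a pseudocount of 0.1, for transcripts with a mean of at least 0.5 TPM, at 0.05. R 4.3.3, DESeq2 1.42.0, Python 3.11.15 and SciPy 1.17.1 were used, and the scripts were tested on simulated data. Depth was 73478797 to 103625443 counts a library, and counting error is only part of the spread between libraries.

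Isoforms were named where they were called in any test, or carried at least 5% of the gene's TPM in a group. The genes and lists were chosen with earlier results of these data known. Alternatives were other size factors, DESeq2, no filter, length-scaled counts, log2 TPM, a length trend, a fit of all 9 libraries, a replicate block, other thresholds, and leaving out each library. GENCODE 44 identifiers alone were added as an alternative after seeing the data. Some items are not reported here.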

Additional observations from a re-analysis of the deposited data

Results flagged for a closer look

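A direct test found that 4 of the 9 genes differed between the UPF1 and the DHX34 knockdown, where 17.6% of 17441 genes did. ALAS2 was lower in the UPF1 knockdown with a log2 difference of -0.68, and UROD, CPOX and FECH were each lower with a log2 difference of -0.19 (edgeR). The ALAS2 call was kept in 6 of 6 fits without 1 library, and those of UROD, CPOX and FECH in 1, 2 and 1. At isoform level, the use of FECH-203 within FECH was higher in the UPF1 knockdown, with a log2 difference of 1.43 (limma). That call was lost in 6 of 6 fits without 1 library. The ALAS2 transcript with the retired identifier, ENST00000330807, was lower in the UPF1 knockdown, with a log2 difference of -0.80 (edgeR). Its call was kept in 1 of 6 fits without 1 library.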

How the results depend on the processing

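In the DHX34 knockdown, where 1 gene was raised and 1 lowered, the counts were 2 and 2 with DESeq2, without a filter and at an adjusted p of 0.05, and 0 raised with length-scaled counts. On log2 TPM they were 3 raised and 0 lowered with a pseudocount of 0.5, and 2 and 0 with 1. In the UPF1 knockdown they were 3 raised and 1 lowered on log2 TPM, and 2 were raised at 0.05. In the direct comparison 1 gene was raised with DESeq2, without a filter, in the fit of 9 libraries and at 0.05, and 1 was lowered on log2 TPM. Over all genes, log2 TPM with a pseudocount of 0.5 gave 810 raised and 98 lowered (DHX34) and 3240 and 285 (UPF1), and 1022 and 444 in the direct comparison. In the DHX34 comparison 1842 genes were called, 3076 with DESeq2, 3430 without a filter, 802 with length-scaled counts, and 908 and 835 on log2 TPM.

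For transcripts, DESeq2 called 1 higher and 2 lower (DHX34), 6 and 12 (UPF1), and 1 and 7 (direct), of 2793, 8776 and 4695 over all transcripts, where edgeR called 28, 1658 and 701. At 0.05 edgeR called 2 lower (DHX34), 5 and 8 (UPF1), and 1 and 6 (direct), of 1631, 6565 and 3793. With a minimum of 0.1 TPM, 1 transcript was called higher in use for UPF1 and 0 in the direct comparison.

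Leaving out 1 library gave 0 to 1 genes raised and 0 to 1 lowered (DHX34), and 0 to 1 raised and 1 to 5 lowered (direct). All genes called ranged from 809 to 1847 (DHX34) and from 1958 to 3947 (direct). For transcripts it gave 0 to 1 higher and 0 to 2 lower (UPF1) and 0 to 2 lower (direct). In use it gave 0 to 1 higher and 0 to 1 lower (DHX34), 0 to 3 and 0 to 1 (UPF1), and 0 to 1 and 0 to 1 (direct).

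Replicate numbers did not pair the libraries, with correlations of same-numbered deviations from -0.0878 to 0.0769. With the replicate block, 0 genes were raised and 0 lowered in the DHX34 knockdown (1061 of all genes called), 1 was lowered in the direct comparison, and 0 transcripts were called at either level (adjusted p = 0.0295 for the ALAS2 form in the direct comparison).

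Signs turned for PPOX in the DHX34 knockdown (-0.00, length-scaled) and, in the UPF1 knockdown, for ALAS1 (0.15) and CPOX (0.06) on log2 TPM, CPOX with GENCODE 44 identifiers (0.04) and FECH without UPF1 knockdown replicate 3 (-0.00). In the direct comparison they turned for UROS (-0.00, -0.02, -0.03 and -0.00: length-scaled, length trend, without DHX34 knockdown replicate 3 and without UPF1 knockdown replicate 3) and SLC25A37 (0.03 on log2 TPM, -0.10 to 0.00 leaving out 1 library). Leaving out 1 library, the retired ALAS2 transcript ranged from -0.05 to 0.04 (DHX34) and its use from -0.20 to 0.02 (UPF1), and the use of SLC25A37-206 from -0.01 to 0.07 (DHX34), from -0.02 to 0.07 (UPF1) and from -0.03 to 0.02 (direct). With diffSpliceDGE the direct value of SLC25A37-206 was 0.04. The cause was not tested.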
